A study of Oryza sativa Japonica Group with 18 samples.

Results

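The small heat shock proteins and HSP101 of rice are chaperones, proteins that keep other proteins from clumping or that recover them from clumps. The 9 genes described here are 9 of the 38610 rows of an expression table from rice leaves. They were chosen by locus ID, with no measured value in the rule but with earlier results of these data known. They are HSP16.9A (Os01g0136100), HSP16.9B (Os01g0136200), HSP17.4 (Os03g0266900), HSP18.1 (Os03g0267000) and HSP17.7 (Os03g0267200) of the class I proteins of the cytosol, HSP18.0 (Os01g0184100) of class II, HSP26.7 (Os03g0245800) of the chloroplast, HSP24.1 (Os02g0758000) of the mitochondrion, and HSP101 (Os05g0519700), also named CLPB1.

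Small heat shock proteins form large oligomers that bind partly unfolded proteins and hold them in a state from which they can be refolded. HSP101 is a ring-shaped ATPase of the ClpB family that threads proteins out of aggregates, working with HSP70. In plants these genes are best known for a steep rise under heat, driven by heat shock transcription factors, and their transcripts are scarce in most leaves that have not been heated.

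Leaves came from rice seedlings at the 3-leaf stage. There were 3 genotypes: wild type (WT), plants overexpressing the ethylene response factor OsERF096 (OX), and plants with an RNA interference construct against it (RNAi). Each was sampled under normal growth (control) and after 12 h at 4 °C (cold), with 3 libraries in each of 6 groups. The labels name no allele or agent that all groups share. The sources used here do not give the promoter of the constructs, the number of independent transgenic lines or whether a group's libraries came from separate plants, so the p-values measure a spread that may be technical. Nor do they say if control and cold leaves were frozen at the same hour, and an effect of the time of day cannot be told apart from cold.

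Expression was deposited as FPKM, fragments scaled to gene length and library total, and the absolute depth is unknown. Judged by the steps between low values, depth was 0.896 to 1.44 times that of the median library, and 19597 to 20939 genes per library reached 1 FPKM. All 5 leaf markers were above 0 in every library, with summed levels from 10321 to 38506 FPKM, while the meristem markers OSH1 and OSH15 and the root marker LSI2 were at 0 throughout. The root marker LSI1 ranged from 0.575 to 14.6 FPKM. WT control replicate 2 stood apart in its 4 secondary wall markers, which summed to 12.5 FPKM against 211 and 279 FPKM in the rest of its group. The row of OsERF096 was not analysed here, so the transgenic labels stand unchecked by their target.

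The 9 genes did not behave as a unit in the cold. HSP17.4 rose in all 3 genotypes, from 1.29 ± 0.256 to 3.41 ± 0.414 FPKM in WT (SD, n = 3). HSP101 was called higher in the cold in OX and RNAi leaves, and HSP16.9B was called lower in the same genotypes. In WT both moved in the same directions without being called. Both entered the tests through OX and RNAi libraries, from groups in which they were high. HSP24.1 was called higher in the cold in WT. Before the cold it was called higher in OX and in RNAi than in WT, but neither call held throughout. The OX call was lost under 17 of 26 alternative analyses, and the RNAi call when only the compared groups were fitted. HSP18.0, with the highest mean level of the 9, passed no test, and HSP17.7 and HSP26.7 were listed at 0 in all 18 libraries.

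Most of these transcripts were scarce. Averaged over the 18 libraries, HSP18.0 stood at 5.97 FPKM, above 67.0% of the rows of the table, followed by HSP24.1 at 4.07 and HSP17.4 at 3.17 FPKM. HSP101 averaged 0.704, HSP16.9B 0.627, HSP18.1 0.525 and HSP16.9A 0.196 FPKM. In WT control leaves HSP18.0 was above every value of HSP24.1 and HSP17.4, which overlapped each other. In OX control leaves the order HSP18.0, HSP24.1, HSP17.4 held without overlap, and in RNAi control leaves HSP18.0 and HSP24.1 overlapped above HSP17.4. In WT cold leaves HSP18.0 overlapped both of the others, and in OX and RNAi cold leaves the ranges of all 3 overlapped. The 4 lower genes lay between 0 and 3.70 FPKM, and their ranges over the 18 libraries overlapped.

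Tests were run on log2(FPKM + 1) for genes that reached 1 FPKM in 3 or more libraries, and 5 of the 9 genes were among the 23175 tested. HSP18.0, HSP24.1 and HSP17.4 reached it in all 18 libraries. HSP101 reached it in 4 libraries, all of them cold OX or RNAi, and HSP16.9B in 3, all of them OX or RNAi controls, so each entered the test through the groups in which it was high. HSP18.1 reached 1 FPKM in 2 libraries and HSP16.9A in 0, and these were tested only with the filter lifted. A difference on this scale understates the fold change of such low genes, and counts over the 5 tested genes describe those genes alone.

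**Figure D1:**
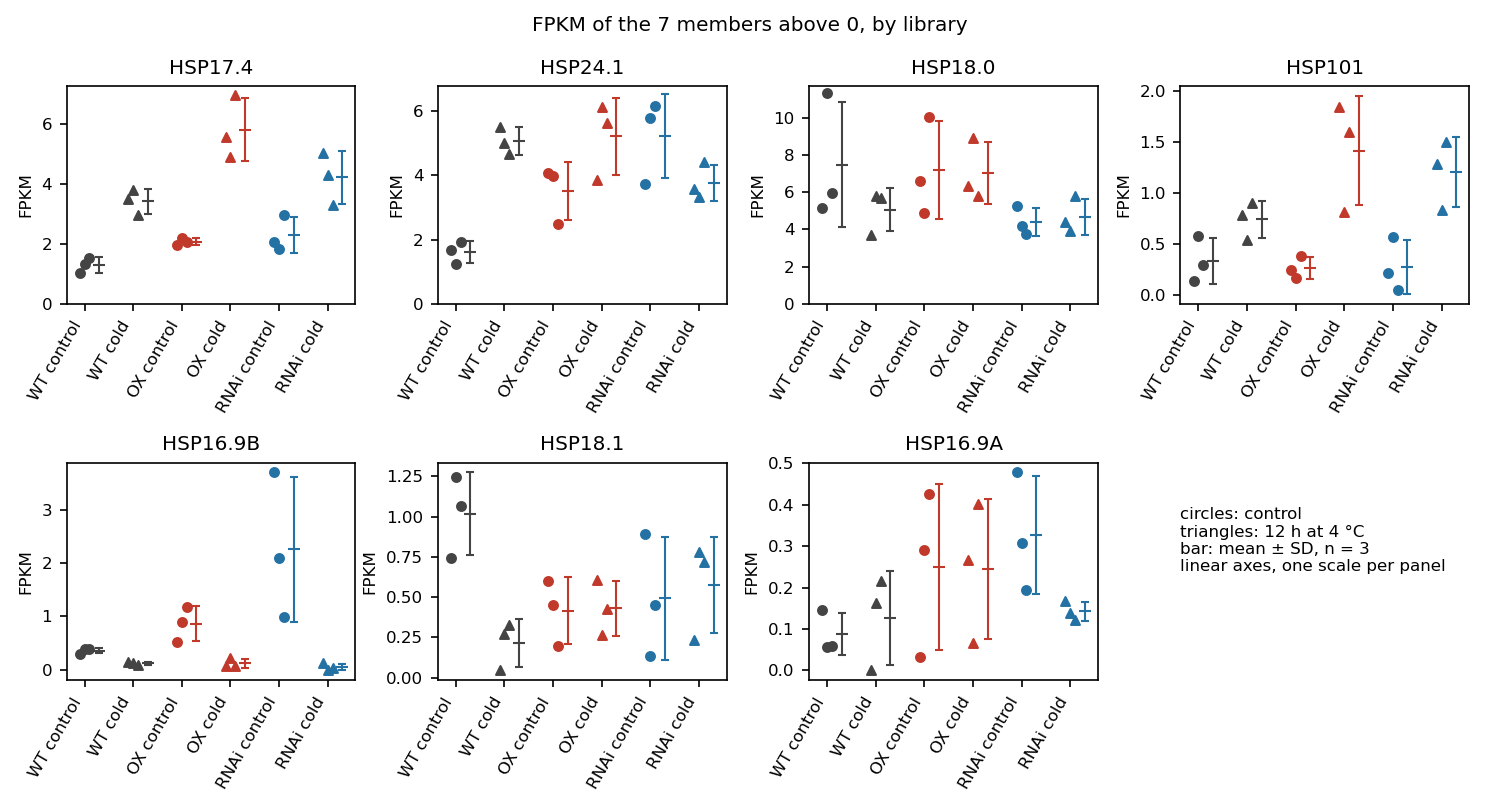
FPKM of the 7 genes above 0 in each of the 18 libraries (y axis, linear, its own scale per panel), with circles for control, triangles for 12 h at 4 °C, and bars for the mean ± SD of 3 libraries. HSP17.4 triangles lie above the circles of the same genotype, HSP24.1 separates control from cold in WT, and HSP16.9B is highest in RNAi controls, at 0.988 to 3.70 FPKM.

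Among the class I genes of the cytosol, HSP17.4 had the highest mean over the 18 libraries, although HSP16.9B was above it in RNAi control replicates 1 and 2. In control leaves it was at 1.01, 1.32 and 1.52 FPKM in WT, at 1.95, 2.18 and 2.07 FPKM in OX, and at 2.07, 1.82 and 2.96 FPKM in RNAi. After 12 h at 4 °C it was at 3.48, 3.78 and 2.96 FPKM in WT, at 5.55, 4.90 and 6.95 FPKM in OX, and at 5.02, 4.30 and 3.29 FPKM in RNAi. Within each genotype every cold library was above every control library, and every OX cold library was above every WT cold library.

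The cold response of HSP17.4 was 0.95 ± 0.17 (SE) on the log2 scale in WT (adjusted p = 0.000341), 1.14 ± 0.17 in OX (adjusted p = 7.6e-05) and 0.67 ± 0.17 in RNAi (adjusted p = 0.00466). It stayed called in each genotype under every alternative run, with adjusted p up to 0.0283. The responses themselves did not differ detectably: OX minus WT was 0.19, with a 95% interval from -0.32 to 0.70, and RNAi minus WT was -0.28, from -0.79 to 0.22. After cold, HSP17.4 was higher in OX than in WT by 0.62 ± 0.17 (adjusted p = 0.0253). That call was lost under median-ratio scaling (adjusted p = 0.0501), under quantile normalization (0.120), and without WT cold replicate 1 or 3 or OX cold replicate 1 or 3 (up to 0.109). Before cold the control libraries of OX and RNAi were all above those of WT, by 0.43 ± 0.17 (adjusted p = 0.172) and 0.51 ± 0.17 (adjusted p = 0.0955).

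HSP16.9B went the other way. In control leaves it was at 0.295, 0.393 and 0.381 FPKM in WT, at 0.522, 0.891 and 1.18 FPKM in OX, and at 3.70, 2.08 and 0.988 FPKM in RNAi. In cold leaves it was at 0.145, 0.128 and 0.0779 FPKM in WT, at 0.0724, 0.218 and 0.0621 FPKM in OX, and at 0.121, 0 and 0.0266 FPKM in RNAi. No cold library of any genotype reached the lowest control library of any genotype, and the RNAi controls spread the most, with a mean of 2.26 ± 1.36 FPKM.

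HSP16.9B fell by 1.55 ± 0.22 on the log2 scale in cold RNAi leaves (adjusted p = 5.28e-05) and by 0.72 ± 0.22 in cold OX leaves (adjusted p = 0.0197). In WT the difference was -0.28 ± 0.22 (adjusted p = 0.324), with every cold library below every control library. The OX call was lost without OX control replicate 3 (adjusted p = 0.0849) or OX cold replicate 1 (0.0556) or 3 (0.0591). Before cold, HSP16.9B was higher in RNAi than in WT by 1.18 ± 0.22 (adjusted p = 0.0134), a call lost without RNAi control replicate 2 (0.0692) and when only the groups compared were fitted (0.202). Its cold response was lower in RNAi than in WT by 1.27 ± 0.32 (adjusted p = 0.00856). With a pseudocount of 0.1 in place of 1 the cold differences grew to -3.89 in RNAi, -2.16 in OX and -1.08 in WT, where the adjusted p was 0.0734.

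HSP16.9A, the neighbour of HSP16.9B on chromosome 1 with no reference gene between them, was near the floor of these libraries. It ranged from 0.0321 to 0.478 FPKM in controls and from 0 to 0.401 FPKM in cold leaves, with overlap of control and cold libraries in WT and OX, while the RNAi cold libraries lay below the RNAi controls. In 15 of the 17 libraries where it was above 0, its value lay within 0.05 of a multiple of 0.5 of its smallest step, with a median of 6.0 steps, so each value stands for few fragments. With the filter lifted, limma called it in no comparison, and the smallest adjusted p was 0.214. The name HSP16.9B belongs to 2 neighbouring reference genes, and how reads of the near-identical class I genes were shared out remains not given in the sources used here, so the split between these neighbours is uncertain.

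HSP18.1 and HSP17.7 follow HSP17.4 on chromosome 3, again with 0 reference genes between neighbours. HSP18.1 was at 0.742, 1.25 and 1.06 FPKM in WT controls and at 0.0456, 0.271 and 0.327 FPKM in WT cold leaves. The groups did not overlap, and with the filter lifted HSP18.1 fell by 0.73 ± 0.19 on the log2 scale (adjusted p = 0.00855), where 22.8% of the genes in that fit were called lower. In OX it was at 0.603, 0.452 and 0.196 FPKM in controls and 0.607, 0.265 and 0.424 FPKM in cold, and in RNAi at 0.895, 0.137 and 0.450 FPKM in controls and 0.235, 0.782 and 0.715 FPKM in cold. The control and cold ranges overlapped in both transgenic genotypes. The RNAi response was above that of WT by 0.82 ± 0.27 (adjusted p = 0.044 with the filter lifted, where 20.0% of genes were called). Side by side on chromosome 3, HSP17.4 rose in WT while HSP18.1 fell, and HSP17.7 was listed at 0. HSP18.1 reached 1 FPKM in 2 WT controls alone. How reads were shared among these class I genes is likewise not given, so the split between these neighbours is uncertain too.

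HSP18.0, the class II protein of the cytosol, showed no call in any of the 12 comparisons. It was at 5.16, 11.3 and 5.95 FPKM in WT controls, 6.60, 4.88 and 10.1 FPKM in OX controls and 5.26, 4.17 and 3.76 FPKM in RNAi controls. In cold leaves it was at 3.71, 5.77 and 5.66 FPKM in WT, 6.33, 8.92 and 5.81 FPKM in OX and 4.39, 3.90 and 5.77 FPKM in RNAi. Control and cold ranges overlapped in every genotype, and its highest value came from WT control replicate 2, the library that stood apart in its secondary wall markers. The cold difference in WT was -0.44 ± 0.27 (adjusted p = 0.202), and -0.13 without that library. The intervals allow changes in either direction: from -1.02 to 0.14 in WT, from -0.58 to 0.58 in OX and from -0.51 to 0.65 in RNAi.

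HSP24.1, which works in the mitochondrial matrix, differed most between genotypes before the cold. In controls it was at 1.69, 1.25 and 1.92 FPKM in WT, 4.09, 3.98 and 2.48 FPKM in OX, and 3.75, 5.78 and 6.16 FPKM in RNAi. In cold leaves it was at 5.52, 5.02 and 4.68 FPKM in WT, 3.87, 6.13 and 5.64 FPKM in OX, and 3.58, 3.32 and 4.41 FPKM in RNAi. The WT controls lay below all 15 remaining libraries. The lowest of them was WT control replicate 2, and the WT cold response stayed called without it.

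In WT, HSP24.1 rose by 1.22 ± 0.20 on the log2 scale (adjusted p = 0.000176), from 1.62 ± 0.339 to 5.07 ± 0.423 FPKM. In OX the difference was 0.46 ± 0.20 (adjusted p = 0.083), and it was called under median-ratio scaling (0.0365) and without OX cold replicate 1 (0.034). In RNAi it was -0.37 ± 0.20 (adjusted p = 0.146), called lower only without RNAi control replicate 1 (0.043). The RNAi response was lower than that of WT by 1.59 ± 0.28 (adjusted p = 0.0012), a call that every alternative kept, with adjusted p up to 0.00474. The OX response minus that of WT was -0.76 ± 0.28 (adjusted p = 0.0957), called without OX control replicate 3 (0.0491).

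Before cold, HSP24.1 was higher than in WT by 1.23 ± 0.20 in RNAi (adjusted p = 0.00432) and by 0.77 ± 0.20 in OX (adjusted p = 0.0415). The RNAi call was lost when only the compared groups were fitted (0.132). The OX call was lost without any of 12 of the 18 libraries, among them all 3 WT controls and OX control replicates 1 and 2 (up to 0.110), without the filter, under both scalings, under the replicate block and with only the compared groups (0.255). After cold the OX libraries lay on both sides of those of WT, and RNAi minus WT was -0.35 ± 0.20 (adjusted p = 0.202), with every RNAi library below every WT library. HSP26.7, the chloroplast protein, was listed at 0 in all 18 libraries, and depth limits what that shows.

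**Figure D2:**
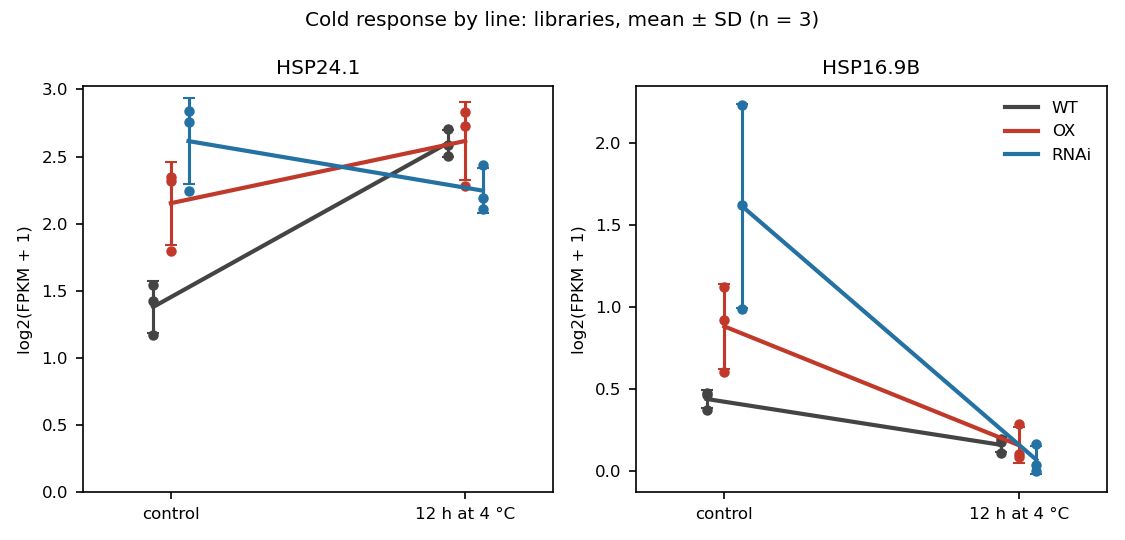
log2(FPKM + 1) of HSP24.1 and HSP16.9B in control and cold leaves (x axis) of WT, OX and RNAi, with a point per library, the mean ± SD of 3 libraries and a line joining the group means. HSP24.1 starts lowest in WT, at 1.62 ± 0.339 FPKM, and HSP16.9B starts highest in RNAi, with all of its cold values at or under 0.218 FPKM.

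HSP101, the disaggregase, was low in every control. It was at 0.131, 0.577 and 0.289 FPKM in WT controls, 0.239, 0.165 and 0.378 FPKM in OX controls, and 0.214, 0.562 and 0.0419 FPKM in RNAi controls. After cold it was at 0.782, 0.535 and 0.899 FPKM in WT, 1.84, 0.811 and 1.59 FPKM in OX, and 1.28, 0.832 and 1.50 FPKM in RNAi. Cold and control libraries did not overlap in OX or RNAi, whereas in WT the highest control, replicate 2, was above the lowest cold library. That control was the library that stood apart in its secondary wall markers. The remaining WT controls, at 0.131 and 0.289 FPKM, lay below every WT cold library.

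HSP101 rose by 0.92 ± 0.20 on the log2 scale in OX (adjusted p = 0.00212) and by 0.80 ± 0.20 in RNAi (adjusted p = 0.00434). It had entered the test through cold OX and RNAi libraries, the groups in which it was high. Both calls held under the alternatives in which the gene was tested, which do not include the filter in 9 libraries. In WT the difference was 0.39 ± 0.20 (adjusted p = 0.122), or 0.52 without WT control replicate 2, and no alternative called it. The responses of OX and RNAi exceeded that of WT by 0.52, with an interval from -0.08 to 1.13, and by 0.41, from -0.19 to 1.01, and neither difference was called, so the rise is not shown to differ from WT. With a pseudocount of 0.1 the cold differences were 2.04 in OX, 2.04 in RNAi and 1.07 in WT.

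**Figure D3:**
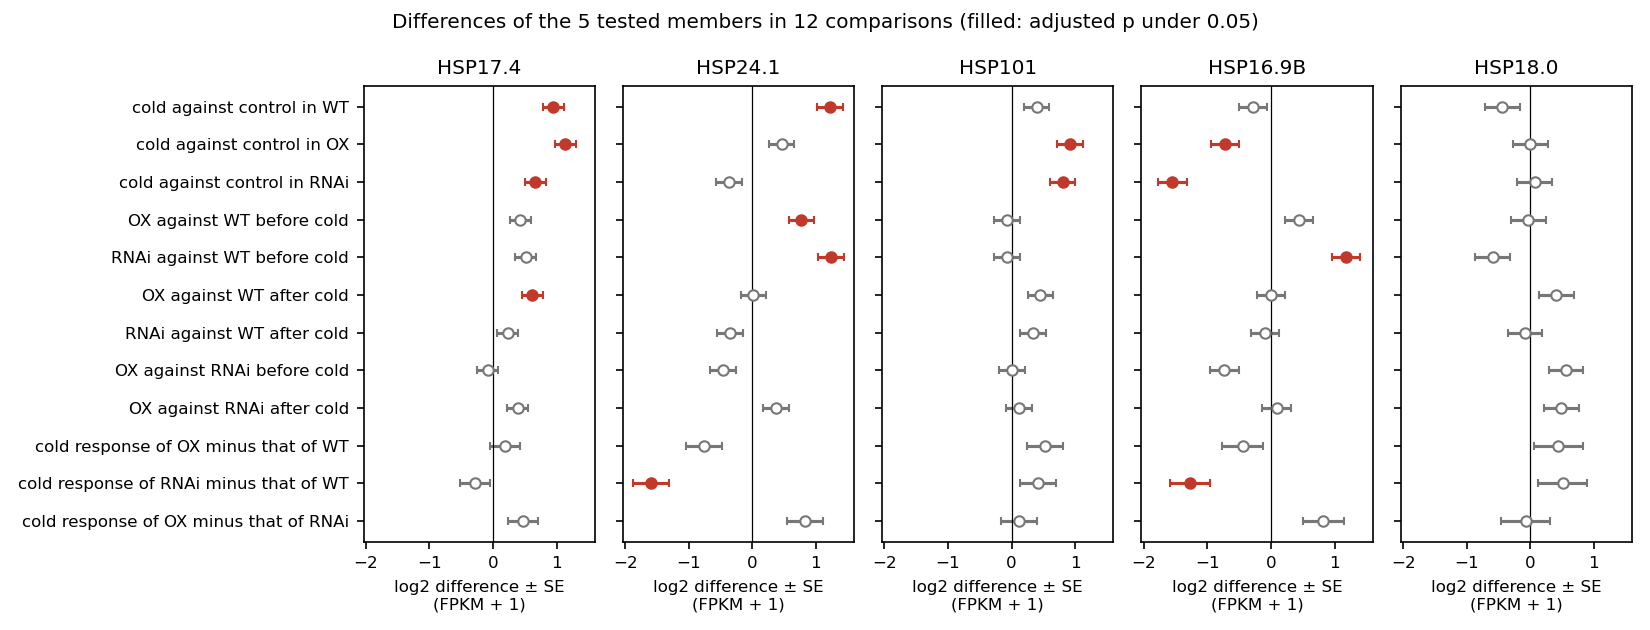
Differences on the log2(FPKM + 1) scale (x axis, ± SE) of the 5 tested genes in the 12 comparisons (rows), filled where the adjusted p is under 0.05. HSP17.4 is filled in the 3 cold rows, HSP24.1 and HSP16.9B in the row of the RNAi minus the WT response, at -1.59 and -1.27, and HSP18.0 nowhere.

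Read by comparison, 2 of the 5 tested genes were higher and 0 lower in cold WT leaves, where 14.0% of all genes tested were called higher and 31.7% lower. In cold OX leaves 2 were higher and 1 lower, against 13.6% and 22.4% of all genes, and in cold RNAi leaves 2 were higher and 1 lower, against 16.9% and 28.1%. The OX and RNAi counts include HSP101 and HSP16.9B, which entered the test through groups in which they were high. A filter in 9 libraries left 3 of the genes, with 1 called in OX and 1 in RNAi. The median differences of the 5 genes were 0.39 in WT, 0.46 in OX and 0.07 in RNAi, beside -0.22, -0.18 and -0.16 over all genes tested. Directions were taken on FPKM as deposited, without removing that shift of all genes. Median-ratio scaling moved the shift to 0.01, -0.01 and -0.01. Of the called genes, the share that was higher went from 30.7% as deposited to 52.7% under median-ratio and 45.2% under quantile scaling in WT, from 37.8% to 55.8% and 43.4% in OX, and from 37.6% to 52.8% and 42.5% in RNAi. None of the called differences of the 5 genes changed sign under these scalings.

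Markers of cell types moved in the same comparisons. In RNAi cold leaves the 4 secondary wall markers summed to 30.5 to 83.0 FPKM against 140 to 176 in RNAi controls, 73.2 to 133 in WT cold and 131 to 234 in OX cold leaves, and 1 of the 4 was called lower in the cold. Of the 2 root markers LSI1 was the 1 tested, with LSI2 at 0, and it ranged from 1.40 to 14.6 FPKM in WT controls and from 0.575 to 0.821 FPKM in WT cold leaves, where it was called lower, at -1.84 on the log2 scale. It ranged from 1.54 to 2.39 FPKM in RNAi controls and from 2.54 to 4.22 FPKM in RNAi cold leaves. Its RNAi response was above that of WT by 2.36, also called. The 14.6 FPKM of LSI1 came from WT control replicate 2, against 1.40 and 5.33 FPKM in the rest of its group. Neither call of LSI1 was examined without that library. Of the 5 leaf markers 1 was called lower in the cold in each genotype, and 1 was lower in RNAi than in WT after cold. The part of these markers in the results was not tested. In RNA of whole leaves, fewer cells of a type and less RNA per cell cannot be told apart.

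Between genotypes before cold, 1 of the 5 genes was called in OX against WT, where 4.00% of all genes were called, and 2 in RNAi against WT, where 2.61% were called. The 2 include HSP16.9B, which entered the test through OX and RNAi controls. After cold, 1 was called in OX against WT beside 12.9% of all genes. In RNAi against WT after cold limma called 0 of the 5, and 0 had an unadjusted p under 0.05, while 27.6% of all genes were called. The contrasts of OX and RNAi with WT share the WT libraries and are not independent of each other.

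Set directly against each other, OX and RNAi differed in none of the 5 genes by limma. Before cold 0 of 5 were called, with 2 at an unadjusted p under 0.05, while 1.73% of all genes were called. HSP16.9B was at -0.73 ± 0.22 and HSP24.1 at -0.46 ± 0.20 in OX minus RNAi, and HSP16.9B was called without RNAi control replicate 3 (adjusted p = 0.00638). After cold 0 were called, with 1 at an unadjusted p under 0.05, HSP17.4 at 0.39 ± 0.17, beside 5.94% of all genes.

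For the cold responses, 0 of 5 differed between OX and WT, with 1 at an unadjusted p under 0.05, beside 10.4% of all genes. Between RNAi and WT 2 of 5 differed, HSP24.1 and HSP16.9B, both lower, beside 30.5% of all genes. HSP16.9B had entered the test through OX and RNAi controls. Between OX and RNAi 0 of 5 differed, with 2 at an unadjusted p under 0.05, beside 0.0475% of all genes.

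The relatives listed beside these genes also moved in different directions in the cold. Their counts stand beside the shares of all genes tested that were called in the same comparisons. Those shares were 14.0% higher and 31.7% lower in WT, 13.6% and 22.4% in OX, and 16.9% and 28.1% in RNAi. Of 9 other small heat shock proteins 6 were tested, and in each genotype 2 were higher and 2 lower. HSP26.2 rose from 0.920 ± 0.372 to 6.27 ± 1.51 FPKM in WT, by 1.92 on the log2 scale, and by 1.98 in OX and 2.16 in RNAi. HSP23.2, of the endoplasmic reticulum, was at 0.0189 ± 0.0327 FPKM in WT controls and at 1.64 ± 0.454 FPKM in WT cold leaves, higher by 1.36, or by 3.88 with a pseudocount of 0.1. It reached 1 FPKM in the 3 WT cold libraries alone, so it too entered the test through the group in which it was high. HSP18.8 fell by 1.11 in OX. HSP16.0, of the peroxisome, fell by 1.58 in RNAi. It reached 1 FPKM in control libraries alone, with cold values up to 0.865 FPKM. HSP16.0 thus also entered the test through the groups in which it was high. After cold HSP23.2 was lower in OX than in WT by 0.77 (adjusted p = 0.0105) and in RNAi by 0.63 (adjusted p = 0.0164). Both calls were lost with a pseudocount of 0.1 and without WT cold replicate 1, that of OX also without OX cold replicate 3 and that of RNAi also without RNAi cold replicate 2 and with only the compared groups.

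The 2 relatives of HSP101 in the organelles differed from each other. In OX the mitochondrial CLPB3 rose by 0.84 in the cold and the chloroplast CLPB2 fell by 0.46, a call lost under 15 of the 26 alternatives, median-ratio scaling among them (adjusted p = 0.298). In RNAi CLPB2 fell by 0.75, and CLPB3 was called only under the scalings. In WT 0 of the 2 were called by limma, with 0 at an unadjusted p under 0.05, and 1 was called under either scaling and without WT cold replicate 3.

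Of the HSP70 family, partners of HSP101 in refolding, 7 of 9 genes were tested. In WT 2 were higher and 1 lower, and the 3 calls went to 0 without WT control replicate 2 or WT cold replicate 2 and to 1 without WT cold replicate 1. In OX 0 were higher and 2 lower, with BIP1 of the endoplasmic reticulum at -1.37, called in all alternatives except without OX control replicate 3. In RNAi 0 were higher and 4 lower. There 1 in all was called under median-ratio scaling, and 2 under quantile normalization, with no filter and without RNAi control replicate 1 or 2 or RNAi cold replicate 1 or 3.

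Of the HSP90 family 5 of 6 genes were tested. In WT 2 were higher and 1 lower, with HSP81-3 at 0.63, and 1 was called without WT cold replicate 3. In OX limma called 0, with 1 at an unadjusted p under 0.05, and 1 under median-ratio scaling and without OX cold replicate 2. In RNAi 1 was lower, and 2 were called with only the compared groups and without OX control replicate 3. The 1 was HSP81-1, a cytosolic HSP90, which fell by 1.44, from 46.2 ± 7.78 to 16.3 ± 1.41 FPKM. After cold 3 of the 5 were lower in RNAi than in WT, where 27.6% of all genes were called in either direction. HSP81-1 was at -1.14 (adjusted p = 0.00267) and HSP81-3 at -0.72 (adjusted p = 0.00902). With only the compared groups 5 were called.

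Of the heat shock factors, the transcription factors that switch these chaperone genes on under heat, 17 of 23 were tested. There were 6 higher and 4 lower in WT, beside 14.0% and 31.7% of all genes tested. In OX there were 7 and 3, beside 13.6% and 22.4%, and in RNAi 7 and 4, beside 16.9% and 28.1%. HSFA3 went from 16.2 ± 6.20 to 253 ± 19.6 FPKM in WT, by 3.95 on the log2 scale, and rose by 4.45 in OX and 5.01 in RNAi. HSFA9 rose by 1.90 in WT, 2.50 in OX and 2.66 in RNAi. After cold 2 of the 17 were higher and 3 lower in RNAi than in WT, beside 27.6% of all genes called in either direction. HSFA2E was among the higher, by 0.66 (limma, adjusted p = 0.00147). Of 4 genes for helpers of the heat response 3 were tested, and 0 were higher in any genotype, with 1, 1 and 2 lower in WT, OX and RNAi. The helper call in WT was lost under both scalings, with only the compared groups, and without WT control replicate 1 or 2 or WT cold replicate 1 or 3. In OX 2 were called without OX control replicate 2. In RNAi 0 were called under median-ratio scaling, and 1 under quantile normalization, with no filter and without RNAi control replicate 1 or 2 or RNAi cold replicate 1 or 3.

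**Figure D4:**
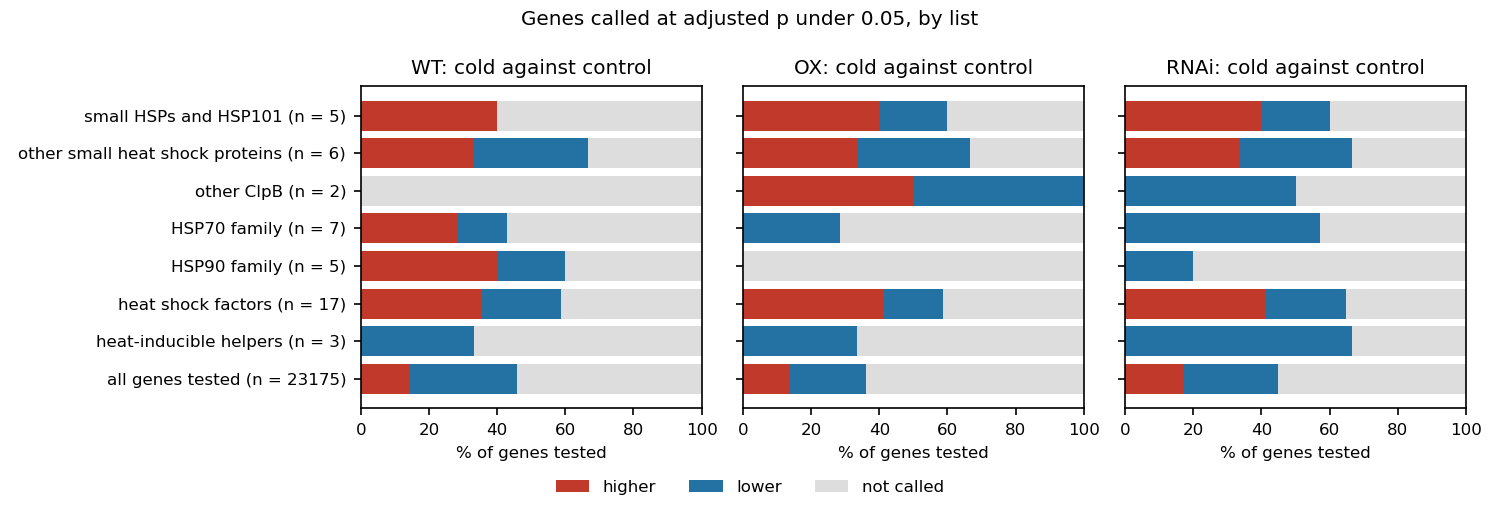
Share of the tested genes of each list (x axis, %) called higher, lower or not called in the cold at an adjusted p under 0.05, in WT, OX and RNAi, with all 23175 tested genes in the lowest bar. The upper bar is the 5 tested small heat shock proteins and HSP101, and the lists of 2 to 17 genes are too short to be read as shares of a family.

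Across the 18 libraries, the closest pair among the 7 detected genes was HSP17.4 and HSP101, with a Pearson r of 0.756 on the log2 scale, followed by HSP17.4 and HSP24.1 at 0.618 and the neighbours HSP16.9A and HSP16.9B at 0.558. HSP18.1 was most unlike HSP24.1, at -0.669, and HSP16.9B most unlike HSP101, at -0.591. These are descriptions over libraries that share groups, treatment and processing, with no test. Of all tested genes, those closest to HSP101 were 2 numbered new genes, at r of 0.934 and 0.917, then Os08g0452900 at 0.916, Os06g0710001 at 0.914 and Os10g0161800 at 0.914. Closest to the mean z-score of the 5 tested genes were Os02g0684400 at 0.839, Os03g0275300 at 0.838, Os05g0243100 at 0.825, Os06g0695500 at 0.820 and Os03g0610400 at 0.814.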

How the data were processed

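The authors deposited 1 table of FPKM values for 38610 genes in 18 libraries of total RNA from leaves. The tools include Bowtie 0.12.2, per the submitters' processing notes, while build, annotation and counting stay not given in the sources used here. Since FPKM holds no totals, values carry no counting interval and depth is known only relative to the median library. Groups came from the sample titles. Values were taken as log2(FPKM + 1), and the 15435 genes that reached 1 FPKM in fewer than 3 libraries were left out. A single limma model (limma 3.58.1, R 4.3.3) with 6 group means and a variance trend gave 12 comparisons, with p-values adjusted by Benjamini-Hochberg over 23175 genes. A call is an adjusted p under 0.05. The procedure was tested on simulated data.

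All 9 genes are described in every comparison, and up to 2 called genes with the smallest adjusted p per list. Members and lists were chosen with earlier results of these data known. Names were written from background knowledge and compared with a reference gene table (ASM3414082v1) by chromosome and order, with 59 of 60 pairs of name and locus checked, the 9 members among them. Some of these names were assigned after that table had been opened. Alternatives were a pseudocount of 0.1, no filter, a filter in 9 libraries, median-ratio and quantile scaling, no variance trend, only the compared groups, a replicate block, and leaving out each library. Sequences were not analysed here.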

Additional observations from a re-analysis of the deposited data

Results flagged for a closer look

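The cold response of HSP24.1, a small heat shock protein of the mitochondrion, differed between RNAi and WT leaves by -1.59 on the log2(FPKM + 1) scale (limma interaction, adjusted p = 0.0012). The 3 WT cold libraries were all above the WT controls, while the RNAi cold and control ranges overlapped. The RNAi controls, at 3.75 to 6.16 FPKM, already lay above the WT controls, at 1.25 to 1.92 FPKM. By limma, RNAi minus WT was 1.23 before cold (adjusted p = 0.00432) and -0.35 after cold (adjusted p = 0.202). The cold response of HSP16.9B, of the cytosol, differed between RNAi and WT by -1.27 (adjusted p = 0.00856). The cold libraries lay below the controls in both genotypes, and the RNAi controls, at 0.988 to 3.70 FPKM, lay above the WT controls. HSP16.9B reached 1 FPKM in 2 RNAi controls and 1 OX control alone, so it entered the test through the groups in which it was high. Both differences were called under every alternative in which the gene was tested. Of all genes tested, 30.5% were called in the same comparison.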

How the results depend on the processing

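Across 26 alternatives none of 58 selected single-gene differences changed sign, and of the values of the 37 called ones 899 stayed called and 53 did not. Differences near 0 were left out of the 58, so their signs were not followed. Examples were HSP18.0 in cold OX (0.0016) and HSP16.9B in OX against WT after cold (-0.0016). Of the 5 tested genes, a filter in 9 libraries left 3, without HSP101 and HSP16.9B, and by that construction calls fell from 3 to 1 in cold OX, from 3 to 1 in cold RNAi, from 2 to 1 in RNAi against WT before cold and from 2 to 1 in the RNAi minus the WT response. For OX against WT before cold the single call went to 0 with no filter, under median-ratio scaling, under quantile normalization and with only the compared groups. With only the compared groups, calls in RNAi against WT before cold went from 2 to 0. For OX against WT after cold the single call went to 0 under median-ratio scaling and quantile normalization. The causes were not tested. Leaving out 1 library gave 0 to 1 calls for OX against WT before and after cold, OX against RNAi before cold and the OX minus the WT response, 1 to 2 for RNAi against WT before cold, 2 to 3 in cold OX and 3 to 4 in cold RNAi.

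Correlations of same-numbered libraries had a median of 0.0376 (from -0.595 to 0.409, 45 pairs), and those of other pairs -0.0169 (from -0.498 to 0.577, 90 pairs), so no pairing by number was shown. The replicate block took OX against WT before cold from 1 to 0 called and changed the call of no other of the 5 genes. Over all genes it took RNAi against WT before cold from 604 to 373. With only the compared groups, calls over all genes fell from 928 to 190 in OX against WT and from 604 to 50 in RNAi against WT before cold, from 401 to 236 in OX against RNAi before cold, and from 2402 to 1563 in the OX minus the WT response. A filter in 9 libraries gave 240 in OX against RNAi before cold. In the OX minus the RNAi response the 11 calls went to 5 with a pseudocount of 0.1, to 22 with no filter and to 2 with a filter in 9 libraries. Leaving out a library took the calls over all genes to 118 (without RNAi control replicate 2) to 1001 (RNAi control 1) in RNAi against WT before cold, to 461 (OX cold 3) to 2286 (WT control 2) of 1377 in OX against RNAi after cold, and to 1214 (OX control 2) from 401 in OX against RNAi before cold. They fell to 398 (OX control 3) from 928 in OX against WT before cold, to 1321 (WT cold 1) from 2983 in OX against WT after cold, to 4068 (WT cold 1) from 6397 in RNAi against WT after cold and to 1078 (WT cold 1) from 2402 in the OX minus the WT response. In the OX minus the RNAi response they lay between 6 and 22 (WT control 2). HSP16.9B in the cold stood at 6.0 of its smallest steps or fewer, and HSP16.9A at 17.4 or fewer in any library, which limits both.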
